A study of Bos taurus with 8 samples.

Results

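The entries described here are the bovine mature miRNAs whose miRBase number is 2000 or higher. Members of the large miR-2284 and miR-2285 families were left out, and so were entries that start on chromosome 21 from 67000000 to 68000000 of the genome build UMD3.1, which removed 2 entries. The rule used names and positions and no measured level. It found 69 of the 565 miRNA entries in rumen fluid, of which 399 are bovine and 166 are human.

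Rumen fluid came from 4 ruminally cannulated, non-lactating Holstein cows, each sampled on a forage diet without concentrate (0%) and again once it received a high-grain (HG) diet with 65% concentrate. The forage samples were taken after a week of forage feeding and the HG samples on the first day at the full concentrate share, each a few hours after the morning feeding. This gave 4 libraries per diet, numbered 1 to 4 by the labels, and a number was read as the same cow on both diets. No cow stayed on forage throughout, so diet and sampling time cannot be told apart. Rumen fluid mixes host cells, free RNA, feed and microbes, and in such bulk samples fewer cells of a type and less RNA per cell cannot be told apart.

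MicroRNAs are short RNAs cut from a hairpin precursor, whose 5p and 3p arms each can give a mature miRNA that guides silencing proteins to messenger RNAs. miRBase numbers families in the order in which they were submitted, so high numbers were given to miRNAs named late, many of them from deep sequencing of single species such as cattle. Old families such as let-7 or miR-23 are shared by most vertebrates and tend to be abundant. Many late-named hairpins lie within introns of protein-coding genes and can be transcribed with their host. Mature sequences and seeds are not shown or compared here.

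The 8 libraries held 300116 to 522804 miRNA reads, which were 6.67% to 29.3% of all reads. The erythrocyte markers bta-miR-451, bta-miR-486 and bta-miR-144 together had 198460 to 206070 reads per 1000000 miRNA reads (RPM) in 7 libraries, and the 7 listed of 8 epithelial markers, such as bta-miR-205 and the miR-200 family, had 22054 to 22803 RPM. HG replicate 2 stood apart from those 7, with 149760 RPM of erythrocyte and 31200 RPM of epithelial markers. In chi-square comparisons of proportions over 78 miRNAs, the 7 pairs that include HG replicate 2 had a chi-square of 23.8 to 28.7 per degree of freedom, against 0.993 to 2.40 in the 21 other pairs. For 7 of these 21 pairs the chi-square test did not find a difference beyond sampling noise (p above 0.05). These were the 3 pairs among forage replicates 1, 3 and 4 (0.993 to 1.18 per degree of freedom), HG replicates 1 and 3 (1.24), and 3 pairs between diets, namely forage replicates 1 and 4 with HG replicate 1 and forage replicate 4 with HG replicate 3. The libraries were kept as separate samples because their shares of miRNA in all reads differ (29.3%, 17.4% and 6.67% on forage), and a fit that counts such libraries of the same diet as 1 sample is given among the alternatives. Values are therefore given with and without HG replicate 2. The chi-square p-values describe sampling of reads, not cows. Each p-value of a diet test rests on the differences between diets within 4 cows only.

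Most of the high-number miRNAs were barely detected. Of the 69, 19 (27.5%) reached 10 reads in at least 1 library, the minimum used for testing, against 19 of 36 entries of miR-2284 and miR-2285 (52.8%) and 229 of 292 other bovine entries (78.4%). Their median total over the 8 libraries was 6 reads, beside 55 for miR-2284 and miR-2285 and 348 for the other bovine entries. Among entries past the minimum the medians were 324, 98 and 1122 reads. The high-number miRNAs past the minimum thus held more reads at the median than those of miR-2284 and miR-2285, and fewer than the other bovine miRNAs.

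Detection differed along the numbering. Of miRNAs numbered from 2000 to below 3000, 4 of 27 reached the minimum, and of those from 3000 to below 6000, 3 of 4 did. From 6000 to below 8000, 9 of 19 reached it, and from 8000 upwards 3 of 19. These counts were not tested, since the numbers follow the order of naming.

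The 50 miRNAs below the minimum had totals of 2 to 39 reads and never more than 8 reads in a library, 299 reads together. Of these, 20 were listed on both diets, 21 on forage only and 9 on HG only, and 23 of the 69 were listed in a single library. The same split is not given for all 565 entries. Of all entries, 455.5 ± 11.9 were listed per forage library and 428 ± 16.2 per HG library (SD, n = 4). Of the 69, it was 33.25 ± 5.85 and 29.75 ± 3.20. The forage libraries were the deeper ones on average (451225 ± 84138 miRNA reads, SD, n = 4, against 353786 ± 43730 on HG), and the tables list only entries with at least 2 reads, so absence from a table means fewer than 2 reads. Whether depth accounts for the lists of 21 and 9 was not tested.

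Together the 69 miRNAs held 29658 reads, of which the 19 past the minimum held 99.0%. A single miRNA, bta-miR-10174-3p, held 67.2% of these reads, and bta-miR-6119-5p, the next one, 9.64%. As a share of miRNA reads the 69 took 0.877%, 0.893%, 0.898% and 0.883% in forage replicates 1 to 4 and 0.904%, 1.13%, 0.915% and 0.910% in HG replicates 1 to 4. The mean was 0.888% ± 0.00957 (SD, n = 4) on forage and 0.965% ± 0.112 on HG. The forage libraries lay within a narrow band just below 3 of the HG libraries, and HG replicate 2 lay above all others. Without bta-miR-10174-3p the means were 0.295% ± 0.0106 on forage and 0.310% ± 0.0328 on HG, and the groups overlapped. Relative to all reads instead of miRNA reads, the 69 took 0.155% ± 0.0810 on forage and 0.129% ± 0.0834 on HG. That order is the opposite one, and the groups overlapped.

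**Figure D1:**
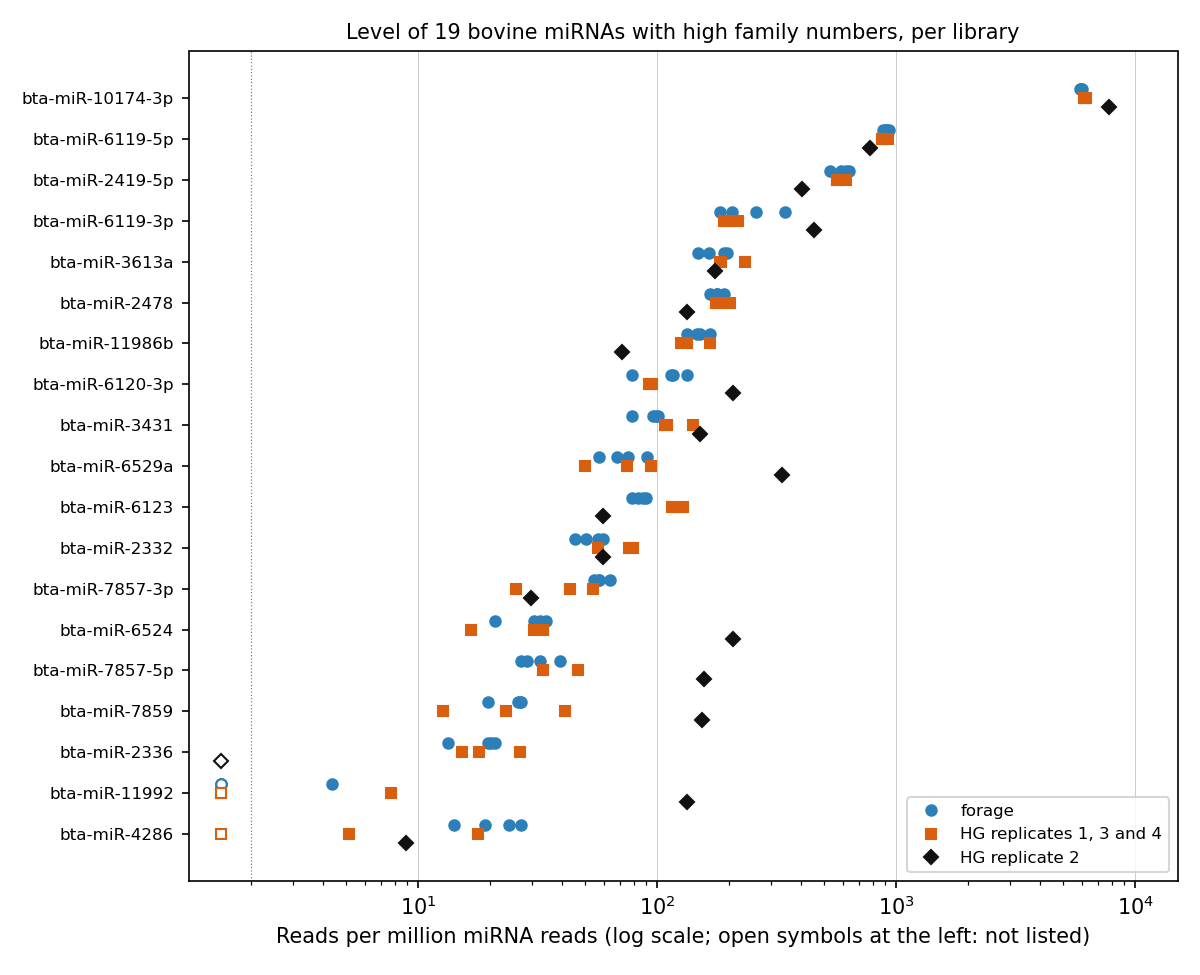
Level of the 19 high-number miRNAs past the minimum in each library, in RPM of miRNA reads on a log axis. Circles are forage libraries, squares HG replicates 1, 3 and 4, diamonds HG replicate 2, and open symbols at the left mark libraries in which the miRNA was not listed. From bta-miR-10174-3p at 5893 RPM or more the levels descend to bta-miR-4286 at 27.1 RPM or less, and the diamond of 7 miRNAs lies more than 2-fold above the median of the other 7 libraries.

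bta-miR-10174-3p lies on chromosome 8 from 83009652 to 83009675, plus strand (UMD3.1), and shares 23 of these bases with bta-miR-23b-3p, from 83009652 to 83009674 on the same strand. The older name marks a conserved miRNA of the cluster with miR-27b and miR-24, expressed in many tissues. bta-miR-10174-3p is annotated 1 base longer, and its hairpin is thus a second annotation of the same locus. In the files bta-miR-27b starts 231 bases and bta-miR-24-3p 768 bases downstream.

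The level of bta-miR-10174-3p was 5893, 5945, 5903 and 5987 RPM in forage replicates 1 to 4 and 6208, 7746, 6126 and 6130 RPM in HG replicates 1 to 4. All HG libraries were above all forage libraries, by little except in HG replicate 2. The means were 5932 ± 43.3 RPM on forage and 6553 ± 797 RPM on HG, or 6155 ± 45.9 RPM without HG replicate 2 (SD, n = 4, 4 and 3). The coefficient of variation among forage libraries was 0.731%, the smallest of the 19, and this miRNA had the most reads. Counting alone would give about 2.05% over the 7 libraries other than HG replicate 2, where 2.09% was observed. The forage value was thus smaller than counting error and does not show how alike the cows are.

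The locus is also counted as bta-miR-23b-3p, which had 14680 reads in all against 19939 for bta-miR-10174-3p, and 4318 ± 101 RPM on forage against 4904 ± 717 RPM on HG (SD, n = 4). The excess of bta-miR-10174-3p over bta-miR-23b-3p was 798, 914, 697 and 519 reads on forage and 480, 595, 643 and 613 reads on HG. Dividing reads among the entries they fit left bta-miR-10174-3p with 61.7% and bta-miR-23b-3p with 48.0% of its reads, so more of the reads of bta-miR-23b-3p than not fit another entry as well. Equal division between both names alone would leave bta-miR-23b-3p at least as many reads as it lost. Some of its reads therefore also fit a further entry or locus, and may come from there. Both names lost the same number of reads on division in 8 of 8 libraries, 7631.75 in all, as they do where the reads that are divided are counted at both names. The tables do not name the entries that share a read, so the exact number counted at both is not given by them, but it is above 7631.75 if all divided reads are common to both, since a divided read loses less than 1. The excess was 27.2% ± 1.61 of the reads of bta-miR-10174-3p on forage and 25.3% ± 1.72 on HG (SD, n = 4), lowest in HG replicate 2 (22.8%).

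The excess itself was 1614 ± 96.4 RPM on forage and 1649 ± 85.5 RPM on HG (SD, n = 4), and here HG replicate 2 lay at 1770 RPM, close to forage replicate 2 at 1748 RPM. The higher value of bta-miR-10174-3p in HG replicate 2 was thus accompanied by a higher value of bta-miR-23b-3p, which had 5976 RPM there. The neighbour bta-miR-27b had 29061 RPM in that library, against 19879 ± 210 RPM on forage (SD, n = 4), and bta-miR-24-3p 37034 RPM against 30162 ± 791 RPM.

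**Figure D2:**
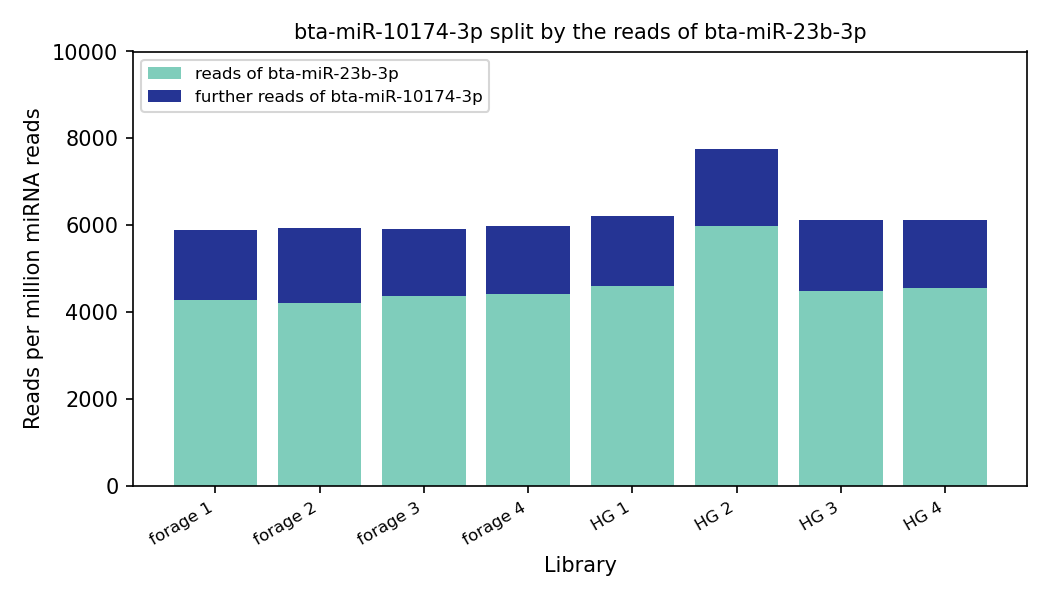
Reads of bta-miR-10174-3p per library, in RPM of miRNA reads, split into as many as bta-miR-23b-3p has and the further ones. The lower part is 5976 RPM in HG replicate 2 and 4197 to 4608 RPM elsewhere, while the upper part lies between 1528 and 1770 RPM in all 8 libraries.

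The hairpin of bta-miR-6119 has both arms among the 19. It lies on chromosome X, with the 5p arm from 3998285 to 3998307 and the 3p arm from 3998326 to 3998348, minus strand, and in RefSeq (assembly ARS-UCD2.0) inside RPL39, a ribosomal protein gene. bta-miR-6119-5p, which shares no reads with another entry, had 880.3, 909, 909.95 and 937 RPM on forage and 873, 776, 870.1 and 928 RPM on HG. The libraries other than HG replicate 2, which was lowest, lay between 870.1 and 937 RPM.

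bta-miR-6119-3p varied more, with 259, 207, 342 and 184 RPM on forage and 189.9, 452, 218 and 206 RPM on HG. HG replicate 2 was highest, and forage replicate 3 next. The 3p share of the reads of both arms was 22.7%, 18.5%, 27.3% and 16.4% on forage and 17.9%, 36.8%, 20% and 18.2% on HG. In HG replicate 2 the 95% Wilson interval of this share was 32.3% to 41.6%, above the value of each of the 7 other libraries. Wilson intervals here cover counting error only. The mean share was 21.2% ± 4.83 on forage and 23.2% ± 9.11 on HG, or 18.7% ± 1.15 without HG replicate 2 (SD, n = 4, 4 and 3).

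miR-7857 also showed both arms, but on chromosome 23 its 5p arm maps to 2 hairpins, so that arm may hold reads of both. The 3p arm (30899942 to 30899964, minus strand) made up 62.8%, 66.7%, 61.7% and 67.9% of the reads on forage and 48.1%, 15.9%, 61.8% and 43.5% on HG. HG replicate 2 was lowest, with a Wilson interval of 8.86% to 26.8%, and forage replicate 4 highest. The mean was 64.8% ± 2.97 on forage and 42.3% ± 19.3 on HG, or 51.1% ± 9.50 without HG replicate 2, from 23 to 63 reads per library in both arms. HG replicate 2 thus held relatively more 3p reads of miR-6119 and relatively more 5p reads of miR-7857 than the other libraries.

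**Figure D3:**
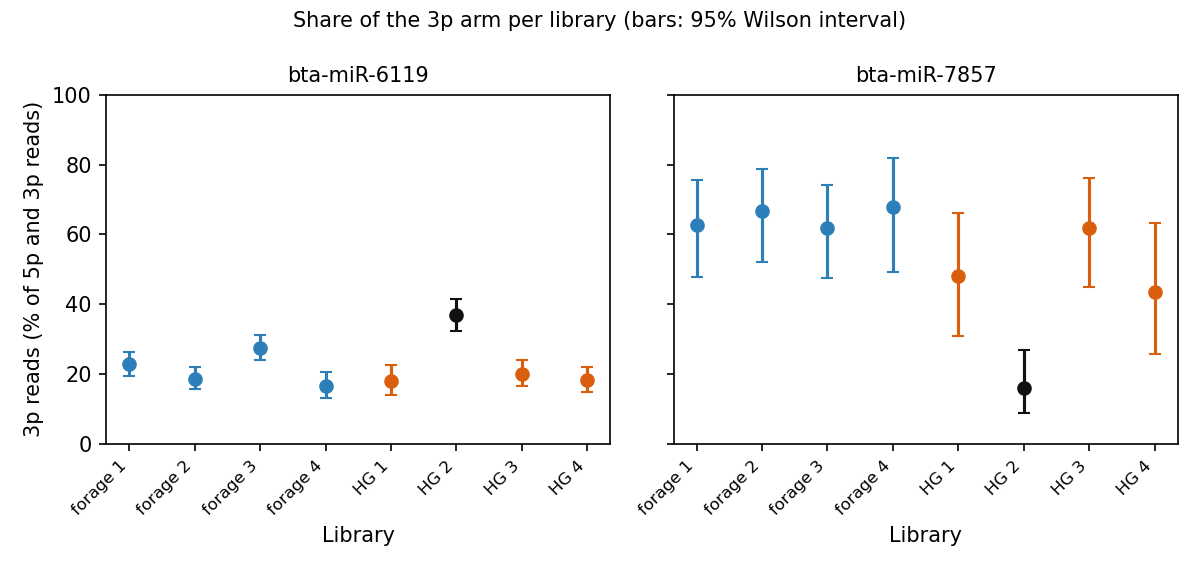
Share of the 3p arm in the reads of both arms for bta-miR-6119 (left) and bta-miR-7857 (right), in percent per library, with 95% Wilson intervals for counting error. HG replicate 2, in black, is highest for bta-miR-6119 (36.8%) and lowest for bta-miR-7857 (15.9%).

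bta-miR-2419-5p, on chromosome 4 from 66346479 to 66346500, minus strand, lies between NOD1, a sensor of bacterial cell wall fragments, and ZNRF2 in RefSeq. It had 528, 637, 585 and 618 RPM on forage and 566, 405, 568 and 616 RPM on HG, lowest in HG replicate 2. Its 3p arm was nearly silent, at no more than 1.91% of the reads in a library. Its levels lay below those of bta-miR-6119-5p in every library.

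At the next 4 ranks, each miRNA overlapped in range with the one below it, although bta-miR-6119-3p lay wholly above bta-miR-11986b. bta-miR-3613a (chromosome 12 from 19542760 to 19542781, minus strand, in an unnamed gene model between SPRYD7 and TRIM13) had 190.2, 197, 164 and 148 RPM on forage and 183, 176, 233 and 186 RPM on HG. bta-miR-2478 (chromosome 9 from 28046325 to 28046344, minus strand) had 178, 191, 178 and 166 RPM on forage and 177, 134, 182 and 201 RPM on HG. Neither separated the diets, and bta-miR-2478 was lowest in HG replicate 2.

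bta-miR-11986b lies inside OCLN, which encodes the tight junction protein occludin, on chromosome 20 from 10188769 to 10188790, minus strand. It had 134, 151, 147 and 166 RPM on forage and 167, 71.4, 133 and 126 RPM on HG. HG replicate 2 had about 0.486 times the median of the other libraries, from 24 reads. The summed epithelial markers were highest there, with 1 of the 7 listed below all other libraries. A link between these values was not tested. A further hairpin of this host, bta-miR-7858, starts 943 bases away and had 2 reads in all.

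bta-miR-6120-3p lies inside CSNK1G2, a casein kinase gene, on chromosome 7 from 45882345 to 45882366, plus strand. It had 134, 115, 116 and 78.3 RPM on forage and 93.3, 208, 92.1 and 95.3 RPM on HG, with HG replicate 2 above all others and the rest overlapping. bta-miR-6529a lies inside GSK3B, a kinase of insulin and Wnt signalling, on chromosome 1 from 65453359 to 65453379, minus strand. Its counts equalled those of the human entry hsa-miR-6529-5p in all 8 libraries, so the same reads carry both names. It had 91.1, 57.4, 68.0 and 75.3 RPM on forage and 49.98, 333, 94.7 and 74.7 RPM on HG.

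Of the 19 miRNAs, 18 were found in RefSeq by their hairpin, and 12 of these lie inside a protein-coding gene, as do 49 of the 65 found among the 69. The 19 are spread over 13 chromosomes, with 3 on chromosome X. Undivided reads, which fit no other entry or locus, were the rule: 60 of the 69 miRNAs and 15 of the 19 had no shared reads. Apart from bta-miR-10174-3p and bta-miR-6529a, the sharing ones were bta-miR-7857-5p, with 80.5 of 151 reads after division, and bta-miR-4286, with 13.25 of 49.

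HG replicate 2 carried most of the differences between libraries. There 7 of the 19 miRNAs were more than 2-fold above the median of the other 7 libraries, beside 8.22% of all 377 miRNAs tested, and 3 were more than 2-fold below it, beside 15.6%. bta-miR-11992 passed the minimum only through HG replicate 2 and had to be high there, and among miRNAs that passed it in another library the counts were 6 of 18, beside 6.74% of 371, and 3 of 18, beside 15.9%. In each of the other libraries 0 or 1 of the 19 was so much higher, beside 1.33% to 3.98% of all, and at most 2 so much lower, beside 1.86% to 3.98%. The library with 2 lower was HG replicate 4, beside 3.45% of all. The largest rises were of low miRNAs.

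bta-miR-6524, which lies inside PDCD4, a gene for an inhibitor of translation, on chromosome 26 from 31733627 to 31733647, plus strand, had 32.4, 34.4, 30.7 and 21.1 RPM on forage and 16.7, 208, 30.7 and 33.5 RPM on HG. HG replicate 2 was 6.78 times the median of the others. bta-miR-7859, inside PTGR2, a prostaglandin reductase gene, on chromosome 10 from 85658727 to 85658748, plus strand, had 26.3, 26.8, 19.7 and 27.1 RPM on forage and 23.3, 155, 12.8 and 41.2 RPM on HG. There HG replicate 2 was 5.88 times the median of the others, from 52 reads against 5 to 16 elsewhere.

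bta-miR-7857-5p was 4.74 times, bta-miR-6529a 4.46 times, bta-miR-6119-3p 2.19 times and bta-miR-6120-3p 2.18 times the median of the other libraries in HG replicate 2. The seventh, bta-miR-11992, inside the splicing factor gene RBM22, had 45 of its 50 reads in that library. The 3 lower ones were bta-miR-11986b, bta-miR-4286 and bta-miR-2336, which was not listed in HG replicate 2 and had 13.4 to 26.7 RPM elsewhere. bta-miR-4286 and bta-miR-2336 reached 10 reads on forage only, bta-miR-2336 in a single library, so the minimum favoured low values of both in HG libraries. All 3 erythrocyte markers were below all 7 other libraries in HG replicate 2, and so were 4 of 5 leukocyte markers (17201 RPM summed, against 21582 to 22180 RPM), while 5 of the 7 listed epithelial markers and 4 of 6 markers of stroma and smooth muscle (90298 RPM, against 65192 to 70224 RPM) were above all 7. Against these directions, 1 leukocyte marker was above and 1 epithelial marker below all 7. The part of these cell types in the values of the 7 and the 3 was not tested.

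Outside HG replicate 2 the median spread of the high-number miRNAs was near that of counting alone over 7 libraries, and below it among the forage libraries. The chi-square of a miRNA's reads over the 7 other libraries, per degree of freedom, averages about 1 for counting noise alone. Its median under counting noise is somewhat lower than that average. Here the median was 1.17 over the 19, beside 1.39 over all 377. The chi-square per degree of freedom was under 2 for 16 of the 19. Among the 4 forage libraries the median was 0.429, below the average for counting noise, beside 1.19 over all, with 18 of 19 under 2. The exception was bta-miR-6119-3p, at 8.42 on forage and 5.59 over the 7 libraries. Over all 8 libraries the median of the 19 was 2.28, beside 2.58 over all 377.

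The diets were compared with edgeR's quasi-likelihood test with cow and diet in the model, fitted over all 377 miRNAs that passed the minimum. None of the 19 (and 0% of the 377) passed an adjusted p of 0.05, and the smallest adjusted p was 0.788. At an unadjusted p under 0.05 there was 1 of 19, beside 2.39% of all (9 of 377), and DESeq2 called 0 of 19 by either measure, with 3 of 377 at an unadjusted p under 0.05. The libraries of the diets did not overlap for 3 of 19, beside 4.51% of all, in CPM with TMM factors (counts per 1000000 reads). Fold changes pointed to HG for 12 and to forage for 7, beside 210 and 167 over all, with a median log2 fold change of 0.19 beside 0.03 over all. The directions of bta-miR-11992, bta-miR-4286 and bta-miR-2336, which are among these, were favoured by the minimum. Without replicate 2 of both diets the split was 9 to 9, beside 187 to 174 over all, and the median -0.01 beside 0.00.

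bta-miR-3431 had the smallest p. It lies inside GABRE, a GABA receptor subunit gene that also hosts miR-224 and miR-452, on chromosome X from 34662680 to 34662701, minus strand. It had 78.9, 99.5, 101 and 96.4 RPM on forage and 109.96, 152, 141 and 108 RPM on HG, so every HG library lay above every forage library. In edgeR its log2 fold change was 0.49 (SE 0.17), higher in 4 of 4 cows, with an unadjusted p under 0.05 and an adjusted p of 0.788. Without replicate 2 it was 0.38 (SE 0.16), with an adjusted p of 0.722. Its neighbours on the same strand gave 153 ± 23.1 RPM on forage and 151 ± 10.3 RPM on HG for bta-miR-224, which starts 1917 bases away, or 156 ± 4.59 RPM on HG without replicate 2 (SD, n = 4, 4 and 3). For bta-miR-452 these were 38.0 ± 7.97, 34.7 ± 15.3 and 39.3 ± 14.9 RPM. The means of these neighbours differed between diets by less than their SD, and the difference of bta-miR-3431 failed the correction.

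The other members of the 3 that did not overlap were bta-miR-7857-3p and bta-miR-10174-3p. bta-miR-7857-3p had 54.6, 57.4, 63.6 and 57.3 RPM on forage and 43.3, 29.7, 53.7 and 25.8 RPM on HG, with a log2 fold change of -0.59 (SE 0.26), lower in 4 of 4 cows, and an adjusted p of 0.788 in edgeR. The HG values rest on 10 to 21 reads each. For bta-miR-10174-3p the log2 fold change was 0.19 (SE 0.10), and 0.05 (SE 0.02) without replicate 2, with adjusted p of 0.788 and 0.722 in edgeR.

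bta-miR-2332, inside UTP6, a gene of ribosome assembly, on chromosome 19 from 18582004 to 18582027, plus strand, had 56.7, 59.3, 50.4 and 45.2 RPM on forage and 76.6, 59.5, 79.3 and 56.7 RPM on HG. Its log2 fold change was 0.41 (SE 0.20), higher in 4 of 4 cows, although the diets overlapped. bta-miR-4286, one of whose 2 loci lies inside the sterol transporter gene STARD3, had 14.2, 19.1, 24.1 and 27.1 RPM on forage and 8.92, 17.9 and 5.15 RPM in HG replicates 2 to 4, and was not listed in HG replicate 1. Its log2 fold change was -1.39 (SE 0.66), lower in 4 of 4 cows, from 2 to 11 reads where listed. It passed the minimum only through forage replicates 2 and 3, with 10 and 11 reads, so a lower value on HG was favoured by the way it was chosen and is no independent evidence.

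The remaining named miRNAs differed between diets by less than 2 standard errors. bta-miR-6119-5p was lower on HG in 4 of 4 cows, by a log2 fold change of -0.03 (SE 0.07). The log2 fold changes were -0.10 (SE 0.12) for bta-miR-2419-5p, 0.20 (SE 0.14) for bta-miR-3613a and 0.00 (SE 0.14) for bta-miR-2478. Those of bta-miR-11986b and bta-miR-6120-3p were -0.26 (SE 0.22) and 0.14 (SE 0.30). With 4 cows, these standard errors leave room for differences in either direction, small ones for bta-miR-6119-5p (SE 0.07) and larger ones for bta-miR-6120-3p (SE 0.30).

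Among the miRNAs chosen for a fold change, bta-miR-11992 left out, the largest positive values belonged to those high in HG replicate 2. These values did not stay without it. Outside that choice, bta-miR-7857-5p had a log2 fold change of 0.90 (SE 0.54), and 0.18 (SE 0.34) without replicate 2. bta-miR-6524 had a log2 fold change of 0.85 (SE 0.66), bta-miR-7859 of 0.85 (SE 0.63) and bta-miR-6529a of 0.68 (SE 0.60), each higher on HG in 2 of 4 cows. Without replicate 2 of both diets these were -0.06, 0.05 and -0.07, and bta-miR-6119-3p moved from 0.11 (SE 0.35) to -0.36 (SE 0.15). Without replicate 2, edgeR called 0 of 18 high-number miRNAs and 2 of all 361 miRNAs (0.554%), with 4 of the 18 at an unadjusted p under 0.05, beside 4.71% of all.

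bta-miR-6123, named here after its values were seen, had the smallest p of these 4. It lies between GNAS and NPEPL1, beside miR-296, on chromosome 13 from 58091685 to 58091705, plus strand, and had 87.0, 89.9, 83.3 and 78.3 RPM on forage and 117, 59.5, 128 and 116 RPM on HG. HG replicate 2 was below all other libraries, and the other 3 HG libraries were above all forage libraries. Without replicate 2 its log2 fold change was 0.54 (SE 0.16), with an adjusted p of 0.489 in edgeR, and with it 0.32 (SE 0.22). The neighbour bta-miR-296-3p, 297 bases away, had 68.1 ± 13.4 RPM on forage and 64.6 ± 21.8 RPM on HG, or 70.3 ± 22.8 RPM without HG replicate 2 (SD, n = 4, 4 and 3). For bta-miR-296-5p, from the same hairpin, these were 37.5 ± 10.4, 29.5 ± 10.1 and 33.4 ± 7.82 RPM.

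**Figure D4:**
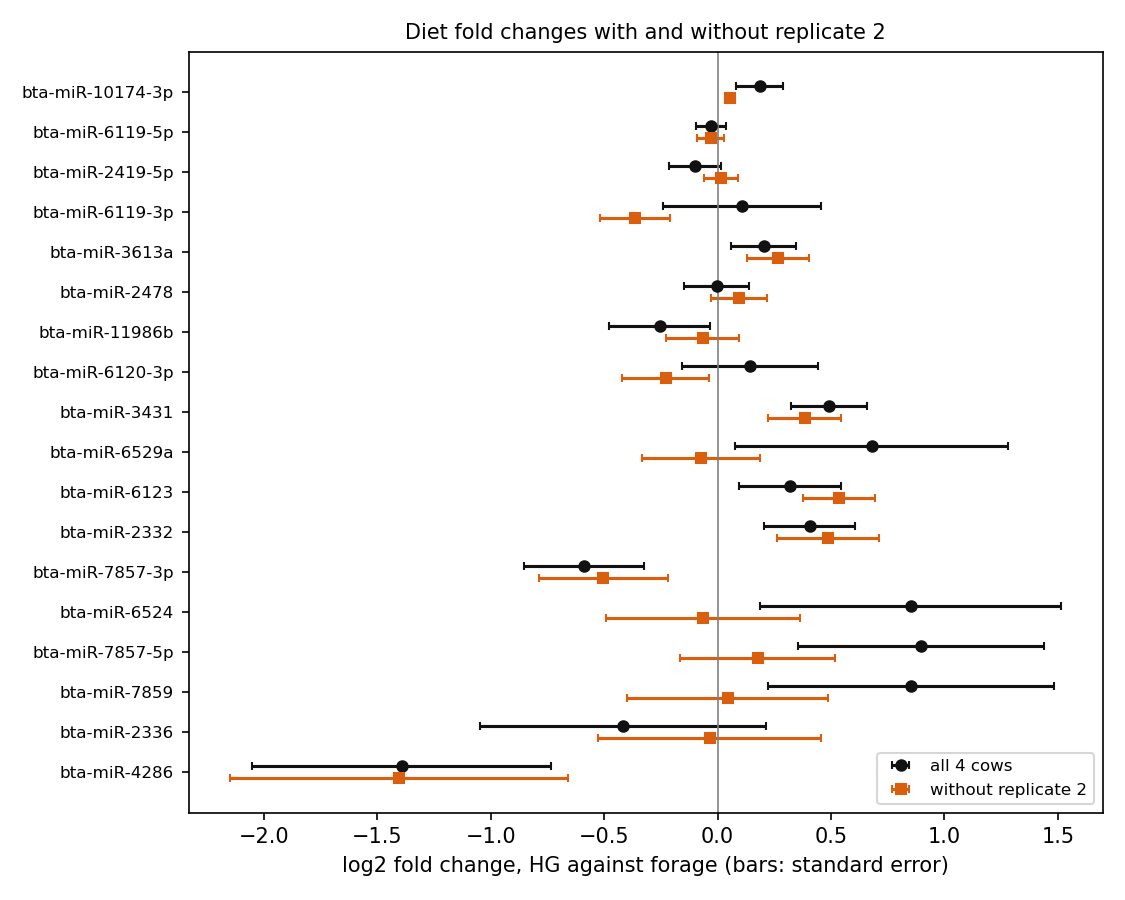
Log2 fold change of HG against forage in edgeR, with its standard error, for 18 high-number miRNAs, with all 4 cows (circles) and without replicate 2 (squares). bta-miR-3431 keeps a positive value in both (0.49 and 0.38), while bta-miR-6524 moves from 0.85 to -0.06.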

How the data were processed

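Small RNA of rumen fluid from 4 cows on 2 diets was sequenced as 8 libraries. Adapters were trimmed by the authors with Skewer, reads that were short or of poor quality were removed, and sRNAbench, which uses Bowtie, assigned the rest to miRBase entries on the genome UMD3.1. The deposited tables give read counts per entry, a read being counted in full at each entry it fits, and list entries with at least 2 reads. They also hold expected counts, which the authors made by dividing such reads. The deposited RPM relative to all reads was used to recover the total of each library. A score in the deposited tables, the RPM within miRNA reads, gave the number of miRNA reads, to which RPM in the text is relative. Per the labels, bcl2fastq 2.20 and DESeq2 were used. A deposited table of normalized values was not used.

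Entries for which some library held 10 or more reads were tested on read counts with edgeR 4.0.16 in R 4.3.3 (TMM, quasi-likelihood, two-sided, cow and diet in the model), with Benjamini-Hochberg adjustment over all 377 entries and a threshold of 0.05. The code was tested on simulated data. Python 3.11.15 with numpy 2.4.6, pandas 2.3.3, scipy 1.17.1 and matplotlib 3.10.9 did the rest. DESeq2 1.42.0, RLE factors, expected counts rounded to whole numbers, other minimums, the fit without the cow block and fits leaving out 1 number were alternatives. Intervals are 95% Wilson intervals.

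The same cows were sampled on both diets, and the labels number the libraries alike, which is the base of the pairing. As a check, deviations from the diet mean correlated at 0.00, -0.09, 0.05 and -0.01 for same-numbered libraries and at -0.14 to 0.22 for others, which by itself does not show it.

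The members and lists were chosen with earlier results of these data known. Values in every library and fold changes were to be given for the 10 members with most reads, for bta-miR-6524, bta-miR-7859 and bta-miR-3431, and for the 3 rising and 3 falling ones with the smallest unadjusted p. bta-miR-11992 is given no fold change, since 45 of its 50 reads lie in 1 library. Host and neighbouring genes are from RefSeq (ARS-UCD2.0), matched by hairpin name for 65 of 69 members. Coordinates are those of the deposited tables.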

Additional observations from a re-analysis of the deposited data

Results flagged for a closer look

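In 11 of 44 groups of 4 values, 1 library lay farther from the rest than Dixon's 95% limit for 4 values allows. Chance gives about 1 in 20, which is 2.2 here. Of the 11, 9 were HG replicate 2. bta-miR-11992, with nearly all reads in that library and passing the minimum only through it, gave 2 of the 11, and without it 9 of 42 groups remained, beside 2.1 by chance.

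In HG replicate 2 the level was 7746 RPM for bta-miR-10174-3p, 452 RPM for bta-miR-6119-3p, 208 RPM for bta-miR-6120-3p and 333 RPM for bta-miR-6529a. It was 208 RPM for bta-miR-6524, 158 RPM for bta-miR-7857-5p and 134 RPM for bta-miR-11992. The 3p share of bta-miR-6119 was 36.8% in that library, and the 69 high-number miRNAs together took 1.13% of its miRNA reads. All 9 values were above the other HG libraries.

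On forage, replicate 3 had 19.7 RPM of bta-miR-7859, from 9 reads, below the other forage libraries. It was also the single forage library that listed bta-miR-11992, at 4.39 RPM from 2 reads. Both rest on few reads.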

How the results depend on the processing

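No high-number miRNA was called for the diet under any alternative run, with or without the replicate block. Over all miRNAs tested, 0 to 2 were called when 1 number was left out, 2 of them without replicate 2, and the cause was not tested. Of 193 fold changes under alternatives, 182 kept direction and side of the threshold, and 9 of 15 named miRNAs kept their direction in all. Without replicate 2 the log2 fold change reversed for 6 miRNAs. Leaving out 1 number at a time, of which replicate 2 was the number that reversed the sign, it ranged from -0.17 to 0.015 for bta-miR-2419-5p, -0.36 to 0.37 for bta-miR-6119-3p, -0.11 to 0.096 for bta-miR-2478, -0.23 to 0.35 for bta-miR-6120-3p, -0.073 to 1.13 for bta-miR-6529a and -0.063 to 1.33 for bta-miR-6524. Without HG replicate 2 and with no replicate block it was -0.29 for bta-miR-6119-3p, 0.054 for bta-miR-2478, -0.28 for bta-miR-6120-3p and -0.14 for bta-miR-6524. With no replicate block alone, bta-miR-2478 turned to 0.0017, and calls stayed at 0. Reversals concern values that were not called.

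All 69 miRNAs passed a minimum of 1 read by construction, against 19 at 10 reads, 17 at 20 reads and 18 to 19 with 1 library left out. The summed share on forage and HG was 0.655% and 0.700% with expected counts, 0.155% and 0.129% of all reads, and 0.295% and 0.310% without bta-miR-10174-3p. Relative to all reads the diets thus changed order. Leaving out 1 library, the share of miRNA reads was 0.885% to 0.892% on forage and 0.910% to 0.986% on HG. A fit added after seeing the data, which counts libraries of a diet without a difference beyond sampling noise as 1 sample, called 0 miRNAs, with 1 of 377 at an unadjusted p under 0.05. At 300116 to 522804 miRNA reads, miRNAs with few reads cannot be compared between diets.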

Other observations

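Of the 565 entries, bta-miR-7180, named here after its values were seen, was the single one listed in all 4 libraries of 1 diet and in none of the other. It had 2, 2, 2 and 3 reads in HG replicates 1 to 4 and was not listed on forage, which means fewer than 2 reads. It lies on chromosome 16 from 33022333 to 33022356, minus strand, inside EFCAB2 in RefSeq. With 9 reads in all it is below the minimum for testing, and no fold is given.

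Among the hairpins below the minimum, bta-miR-11977 had the most reads, 39 over 8 libraries and 2 to 8 in each. Only 9.75 of these remained after division among the entries or loci that they fit.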
